A study of Mus musculus with 24 samples.

Results

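The genes described here are 9 genes of antibody-secreting cells, among the 56941 genes of a kidney RNA sequencing table from mice after myocardial infarction (MI). They are the light chain constant region genes Igkc, Iglc1 and Iglc2, the heavy chain constant region genes Igha, Ighm, Ighg2b and Ighg2c, the joining chain gene Jchain and the plasma cell gene Mzb1. They were named as a list by gene symbol and chosen by their levels in kidneys 28d post-MI against sham kidneys, of which that of Igkc was already known. The values of that comparison are therefore given as a description, and so are those of 28d against 5d post-MI, which use the same kidneys 28d post-MI. For both, the number of members called is printed beside the share of all genes called, and nothing is read from it. Of the 9 genes, 5 passed the filter on low counts (Igkc, Igha, Ighm, Jchain and Iglc1). The other 4 had too few counts to be tested, and Mzb1 was listed at 0 in all 22 kidneys.

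All kidneys came from male wild-type C57BL/6J mice, young adults at surgery. To cause MI the left anterior descending coronary artery (LAD) was tied off for good, and sham-operated mice had the same surgery without the artery being tied. There were 8 sham kidneys and 8 kidneys from mice 5d post-MI, both collected 5d after surgery, and 6 kidneys from mice 28d post-MI. Sham kidneys served as controls for both times, so at 28d the effect of MI and that of a longer time after surgery cannot be told apart.

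A plasma cell is a B cell that has stopped dividing to secrete antibody, and most of its messenger RNA is made from a few immunoglobulin genes. Each antibody pairs a heavy chain with a light chain, kappa or lambda, and the constant region of the heavy chain sets its class. Cells that make dimeric IgA or pentameric IgM also make the J chain, which joins the units through cysteines near the tail of the heavy chain and lets the polymeric immunoglobulin receptor of an epithelium carry the antibody across. In laboratory mice kappa light chains outnumber lambda ones by far, and IgA is the main product of plasma cells in mucosal tissues.

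The tails of the heavy chains show which members can bind the J chain. The sequences are the last 54 coding bases of the secreted form, from GENCODE M21 transcripts on GRCm38, minus strand, with the codon before the last in capitals. They lie at chr12:113258771-113258824 (Igha), chr12:113420870-113420923 (Ighm), chr12:113306392-113306445 (Ighg2b) and chr12:113287392-113287445 (Ighg2c). In Igha and Ighm this codon is that of the tail cysteine, and in both IgG genes it is another codon.
Igha: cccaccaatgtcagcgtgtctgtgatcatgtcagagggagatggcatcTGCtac
Ighm: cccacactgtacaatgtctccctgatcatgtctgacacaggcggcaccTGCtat
Ighg2b: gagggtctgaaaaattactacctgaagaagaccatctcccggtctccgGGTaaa
Ighg2c: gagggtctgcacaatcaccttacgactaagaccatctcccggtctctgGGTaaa

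The lambda gene Iglc2 has a close copy in Iglc3, while Iglc1 is further from both, which bears on how far their counts can be kept apart. The stretches of 120 coding bases below are from the same annotation, minus strand, at chr16:19198674-19198793 (Iglc2), chr16:19061893-19062012 (Iglc1) and chr16:19065503-19065622 (Iglc3, the copy nearest to Iglc2 and not a member). Capitals mark bases that differ from Iglc2. There are 32 such bases in Iglc1 and 3 in Iglc3.
Iglc2: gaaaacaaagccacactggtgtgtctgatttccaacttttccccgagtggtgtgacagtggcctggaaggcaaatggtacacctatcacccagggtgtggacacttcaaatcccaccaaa
Iglc1: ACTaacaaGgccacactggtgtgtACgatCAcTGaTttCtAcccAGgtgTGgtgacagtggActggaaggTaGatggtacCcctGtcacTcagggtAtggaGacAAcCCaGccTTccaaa
Iglc3: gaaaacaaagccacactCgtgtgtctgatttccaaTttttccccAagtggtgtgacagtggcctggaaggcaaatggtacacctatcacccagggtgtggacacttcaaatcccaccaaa
Over the whole transcripts, Iglc2 and Iglc3 shared 95.4% of 452 aligned bases, with an identical run of 79 bases. Ighg2b and Ighg2c shared 86.4% of 1111 aligned bases, with an identical run of 78. The counts of Iglc2 and of both IgG genes may therefore be uncertain, since reads could be split between copies or left out. The sequencing counts 3′ ends of transcripts, while the stretches above do not lie at the 3′ ends. Identity at the 3′ ends alone was not measured, so the effect on the counts is not known. Iglc1 shared 69.9% with Iglc2, with no identical run over 19 bases, and Igkc shared 61.4% with Iglc1.

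Total counts per kidney were between 2280618 and 3786275. Levels are given as CPM, counts scaled to a common library total after TMM normalization, and since the method counts 3′ ends of transcripts they were not divided by gene length. In 3 kidneys (sham replicates 2 and 6 and 5d replicate 5), 5 adrenal genes summed to 966, 719 and 84.0 CPM, against at most 4.27 CPM in each of the others. Counts of calls are given below with all kidneys, and leaving out these 3 changed no member's call. Sums over an organ piece cannot tell fewer cells of a type from less RNA per cell. The labels name separate samples, and p-values measure the spread between them.

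The kappa light chain and IgA heavy chain genes and Jchain were all about 3-fold higher in kidneys 28d post-MI than in sham kidneys, while the fitted level of Ighm, the IgM heavy chain gene, was 0.761 of that in sham. At 5d post-MI none of the 5 tested members passed the test against sham. In the comparison of 28d with sham, every kidney 28d post-MI lay above every sham kidney for 3 of the 5 tested members, where 0.188% of the 12780 tested genes did so, and the members were chosen with these values known.

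**Figure D1:**
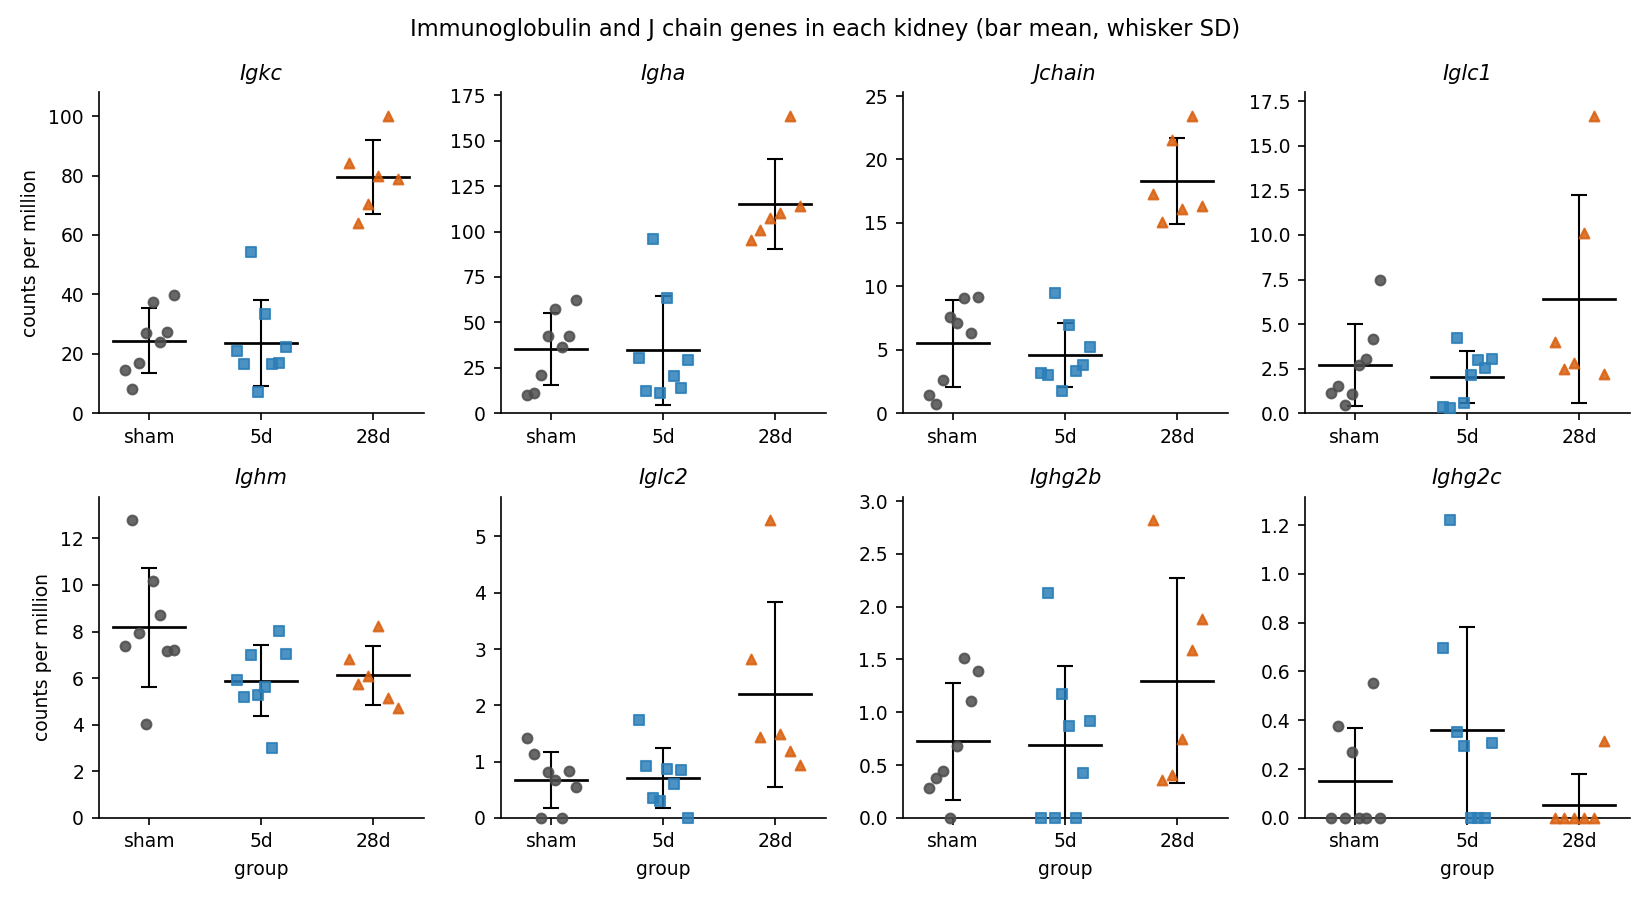
CPM (y axis, linear from 0) of the 8 members with counts in each kidney, by group (x axis), with 8 sham, 8 5d post-MI and 6 28d post-MI kidneys as points, the group mean as a bar and the SD as a whisker. Igkc, Igha and Jchain lay above every sham kidney in 6 of 6 kidneys 28d post-MI, and Ighm in 0 of 6.

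Igkc (chr6:70726435-70726966, plus strand) encodes the constant region of every kappa light chain. Its level in sham kidneys ranged from 8.26 to 39.9 CPM with a median of 25.4. At 5d post-MI it was between 7.05 and 54.3 CPM with a median of 18.9, and at 28d between 64.1 and 100 CPM with a median of 79.3. All 6 kidneys 28d post-MI were above all sham kidneys and all kidneys 5d post-MI, while the sham and 5d groups overlapped. The means were 24.4 ± 11 (SD, n = 8), 23.5 ± 14.5 (n = 8) and 79.6 ± 12.4 CPM (n = 6), in that order. The fitted log2 difference of 28d to sham was 1.68 with a standard error of 0.31, a 3.20-fold level, and that of 28d to 5d was 1.78 (standard error 0.31).

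Igha (chr12:113254830-113260236, minus strand), the heavy chain gene of IgA, ranged from 10.2 to 62.1 CPM in sham kidneys with a median of 39.4. At 5d post-MI the range was wider, from 11.2 to 95.6 CPM with a median of 24.9. At 28d post-MI it was 95.4 to 164 CPM with a median of 109. All 6 of these were above every sham kidney and 5 of 6 above every kidney 5d post-MI, the exception being 28d replicate 1 just under 5d replicate 3. Means were 35.4 ± 19.7, 34.6 ± 29.98 and 115 ± 24.7 CPM. The log2 difference of 28d to sham was 1.68 (standard error 0.42) and that of 28d to 5d was 1.77 (standard error 0.43).

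Jchain (chr5:88519809-88527891, minus strand) encodes the chain that joins IgA or IgM units. In sham kidneys it held 2 to 33 counts, or 0.751 to 9.15 CPM with a median of 6.73. At 5d post-MI it held 1.76 to 9.46 CPM with a median of 3.56, and at 28d 15.0 to 23.4 CPM with a median of 16.8. Kidneys 28d post-MI did not overlap with either other group. The mean was 5.51 ± 3.40 CPM in sham, 4.58 ± 2.51 at 5d and 18.3 ± 3.39 at 28d. Jchain had a log2 difference of 1.68 (standard error 0.33) for 28d to sham and of 2.02 (standard error 0.34) for 28d to 5d.

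Iglc1 (chr16:19061618-19062071, minus strand), a lambda light chain gene, had 1 to 27 counts in a sham kidney and 7 to 42 in a kidney 28d post-MI. Its median was 2.11 CPM in sham, 2.35 CPM at 5d and 3.44 CPM at 28d post-MI. The mean of 6.39 ± 5.84 CPM at 28d, against 2.69 ± 2.29 in sham, rested on replicates 6 and 4 with 16.7 and 10.1 CPM. The other 4 kidneys lay within the sham range of 0.442 to 7.49 CPM. The log2 difference of 28d to sham was 1.15 (standard error 0.57), 0.60 without replicate 6, and also 0.60 with the adipocyte level of each kidney as a covariate.

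Ighm (chr12:113418558-113422730, minus strand) encodes the heavy chain of IgM, which naive B cells hold in the membrane and some plasma cells secrete. The table gives 1 count per gene, so the 2 forms, which end in different 3′ exons, were not separated. Sham kidneys had 4.04 to 12.8 CPM with a median of 7.66, kidneys 5d post-MI 3.01 to 8.04 CPM with a median of 5.78, and kidneys 28d post-MI 4.70 to 8.23 CPM with a median of 5.91. The 3 groups overlapped, and 0 of 6 kidneys 28d post-MI were above every sham kidney. Ighm had a log2 difference of −0.39 (standard error 0.21) for 28d to sham and of 0.07 (standard error 0.22) for 28d to 5d. Its highest value was in sham replicate 2, one of the kidneys with adrenal markers, and without those 3 kidneys the difference of 28d to sham was −0.24.

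The remaining members were at or near the counting limit, where a count of 0 allows up to 3 counts in a kidney, for counting error only. Iglc2 (chr16:19198396-19200351) had 18 counts over the 8 sham kidneys, 16 over the 8 kidneys 5d post-MI and 34 over the 6 kidneys 28d post-MI. The means of Iglc2 were 0.677 ± 0.496, 0.702 ± 0.531 and 2.19 ± 1.65 CPM, and 4 of 6 kidneys 28d post-MI were above every sham kidney. Ighg2b (chr12:113302965-113307933), one of the IgG heavy chains, had 18, 17 and 21 counts. Ighg2c (chr12:113285325-113288932), another IgG2 heavy chain of C57BL/6 mice, had 4, 9 and 1 counts (means 0.150, 0.358 and 0.0522 CPM). Neither IgG gene had more than 7 counts in any kidney. Fitted by edgeR without the filter, Iglc2, Ighg2b and Ighg2c were not called in any comparison. In that fit Iglc2 was at an unadjusted p under 0.05 in 28d against sham and in 28d against 5d, and Ighg2c in 28d against 5d.

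Mzb1 encodes a chaperone of the endoplasmic reticulum that helps to assemble antibody in B cells and plasma cells. It was listed at 0 in all 22 kidneys, also in 28d replicate 6 with its 252 counts of Igkc. In GENCODE M21, 57.2% of its 1215 exon bases are shared with SPATA24 on the same strand, which was also at 0 in the table, and the part of this overlap in the zeros was not tested.

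**Figure D2:**
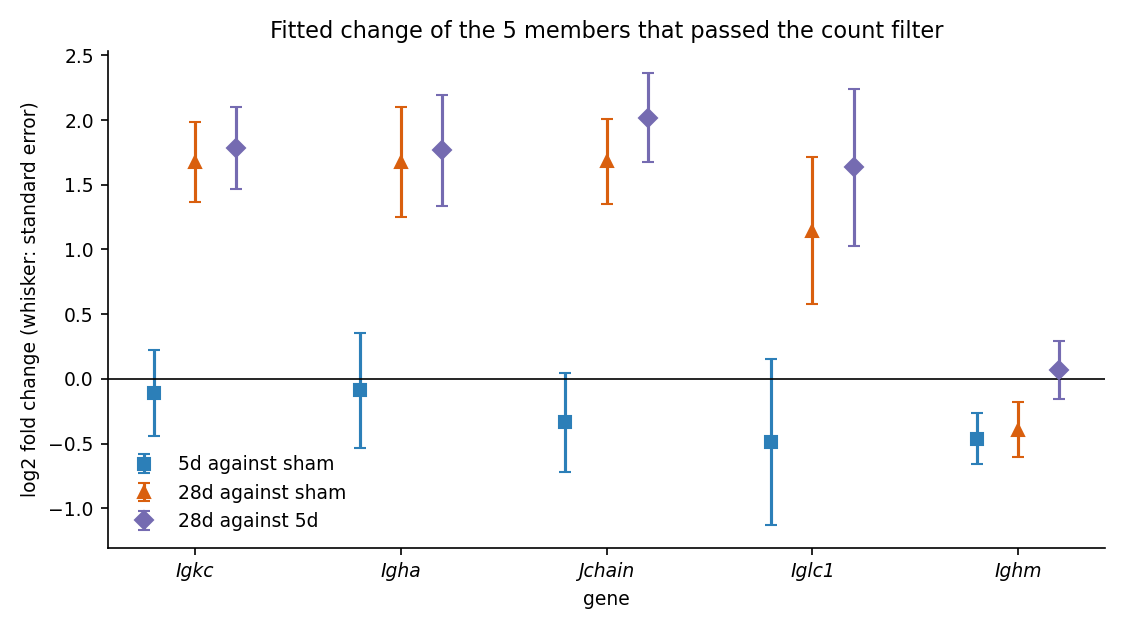
Fitted log2 fold changes (y axis) of the 5 members that passed the filter (x axis) for 5d against sham, 28d against sham and 28d against 5d, with the standard error as whisker. Igkc, Igha and Jchain sit near 1.7 for 28d against sham. For 5d against sham Igkc is at −0.11, Igha at −0.09 and Jchain at −0.33, and Ighm is below 0 in both comparisons with sham.

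The comparison of 5d post-MI with sham was not the one the members were known for, and it asks whether immunoglobulin transcripts differed in the acute phase. It reuses the 8 sham kidneys of the comparison by which the members were chosen, and so do the tests of shares below. Their p-values are therefore not independent of that choice. None of the 5 tested members was called by edgeR's quasi-likelihood test at a Benjamini-Hochberg adjusted p under 0.05, where 0.0704% of 12780 genes were called. DESeq2 and limma voom also called 0 members, and the totals of all genes they called are given in the last section. With an unadjusted p under 0.05 there was 1 member, Ighm, beside 1009 of all 12780 tested genes. Its log2 difference was −0.46 (standard error 0.19, unadjusted p = 0.0223, adjusted p = 0.549 from edgeR), and −0.29 without the 3 kidneys with adrenal markers. The difference of Igkc was −0.11 (standard error 0.33, adjusted p = 0.968 from edgeR), with a 95% interval of −0.76 to 0.54 on the log2 scale. For Igha it was −0.09 (interval −0.95 to 0.78, adjusted p = 0.980 from edgeR). Jchain gave −0.33 (interval −1.08 to 0.41, adjusted p = 0.894 from edgeR). The fitted value of Iglc1 was −0.49, but Iglc1 did not pass the filter with only the sham and 5d kidneys, which left 4 members tested, nor without sham replicate 7, sham replicate 8 or 5d replicate 3. Without 5d replicate 3, the kidney with the highest Igha at this time, the differences were −0.41 for Igkc, −0.52 for Igha and −0.58 for Jchain. No tested member had every kidney 5d post-MI above every sham kidney, as did 0.0391% of all tested genes.

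In 28d against sham, edgeR called 0 of the 5 tested members, with 0.0235% of all genes called. In it 3 members (Igha, Igkc and Jchain) had an unadjusted p under 0.05. Of all 12780 tested genes, 1109 had an unadjusted p under 0.05 in edgeR for 28d against sham and 1156 for 28d against 5d. DESeq2 called 1 (Igha), having given Igkc and Jchain no adjusted p, and 2 (Igkc and Jchain) with its independent filtering off, while limma voom called 3. In 28d against 5d edgeR called 2 (Igkc and Jchain), with 0.415% of all genes called, and 2 members were higher in every kidney 28d post-MI, as were 0.25% of all genes. DESeq2 and limma voom each called 3 in 28d against 5d (Igha, Igkc and Jchain). Over the alternative settings other than leaving out 1 kidney, 26 to 160 genes in all were called in 28d against 5d. For 28d against sham this range was 1 to 94 genes. Nothing is read from these counts, because the kidneys 28d post-MI were those the members were known from. Leaving out 5d replicate 3, 5d replicate 5 or sham replicate 8 gave 2 called members in place of 0 for 28d against sham.

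The members also differed strongly between kidneys of 1 group. The sum of all immunoglobulin constant region genes covers the members except Jchain and Mzb1, and 6 other genes. It ranged from 35.7 to 120 CPM in sham kidneys and from 26.7 to 162 CPM at 5d post-MI. At 28d it ranged from 177 to 292 CPM. Its mean was 74.1 ± 31.4 CPM in sham, 68.6 ± 45.1 at 5d and 213 ± 40.4 at 28d, and all 6 kidneys 28d post-MI were above every sham kidney. At 5d post-MI 1 of 8 kidneys, replicate 3, was above every sham kidney.

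Within the sham and 5d groups, kidneys with more Igha also had more Igkc and more Jchain. The Pearson correlation of log2 levels of Igha and Igkc was 0.945 in sham kidneys (n = 8, exact permutation p = 0.000322, adjusted 0.00223, Spearman's rho 0.976, exact p = 0.000397, adjusted 0.00714), and 0.989 without the 2 kidneys farthest from the median. In kidneys 5d post-MI it was 0.916 (n = 8, exact permutation p = 0.000149, adjusted 0.00223, rho 0.952, exact p = 0.00114, adjusted 0.0103), and 0.741 without 2 kidneys. At 28d it was 0.728 (n = 6, exact permutation p = 0.125, adjusted 0.214, rho 0.371, exact p = 0.497, adjusted 0.526), over a narrower range of levels. For Igha and Jchain it was 0.95 in sham (exact permutation p = 0.00337, adjusted 0.0101, rho 0.667, exact p = 0.0831, adjusted 0.238) and 0.899 at 5d (exact permutation p = 0.00208, adjusted 0.00750, rho 0.833, exact p = 0.0154, adjusted 0.0692). Without 2 kidneys these were 0.802 and 0.623. Ighm showed no such relation with Igha, at −0.336 in sham (exact permutation p = 0.429, adjusted 0.486, rho −0.310, exact p = 0.462, adjusted 0.526) and 0.249 at 5d (exact permutation p = 0.566, adjusted 0.600, rho 0.405, exact p = 0.327, adjusted 0.420), and at −0.0213 and 0.0529 without 2 kidneys. There were 18 such correlations in all, 6 pairs in each of 3 groups, over which the p-values are adjusted, and at 28d none of the 6 pairs had an adjusted exact permutation p under 0.05 (lowest 0.182). Scaling by a shared total is common to both genes of a pair.

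**Figure D3:**
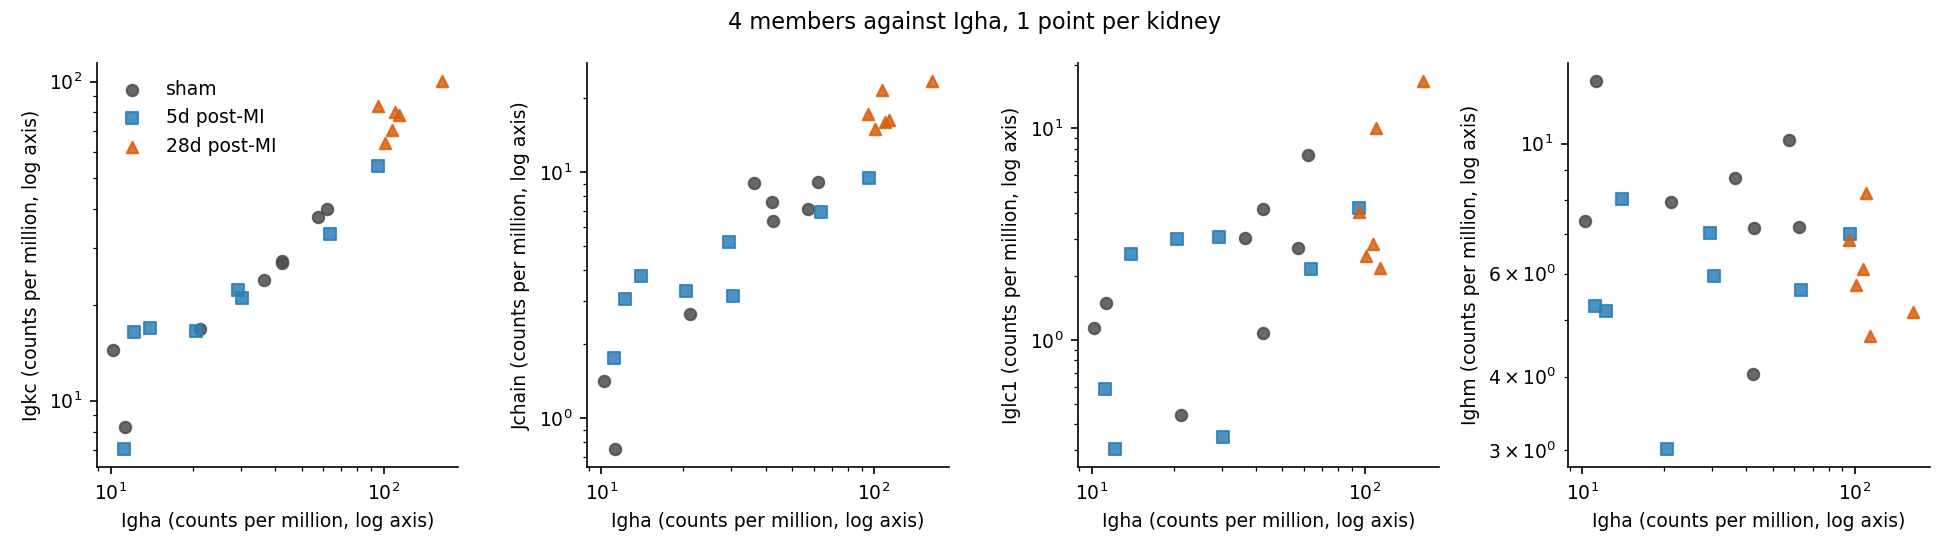
Level of Igkc, Jchain, Iglc1 and Ighm (y axes, CPM, log scale) against that of Igha (x axes, CPM, log scale), with 1 point per kidney and the groups as symbols. Among sham and 5d kidneys, which span 10.2 to 95.6 CPM of Igha, Igkc is higher where Igha is higher and Ighm shows no such relation, and the kidneys 28d post-MI lie at 95.4 to 164 CPM of Igha.

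The ratios of these genes differed little between groups. For each Igha count there were 0.772 ± 0.266 Igkc counts in sham kidneys, 0.818 ± 0.303 at 5d and 0.700 ± 0.0980 at 28d post-MI. For every 100 Igha counts there were 14.7 ± 5.23, 16.6 ± 6.58 and 16.1 ± 2.45 Jchain counts. For both ratios the group means differed by less than the SD of the sham kidneys, although the levels 28d post-MI were about 3-fold higher.

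The class makeup of the heavy chain counts moved with their total and largely restates the level of Igha. The IgA share was 44.1 to 62.3% in the kidneys with 53 to 69 heavy chain counts and 87.2 to 95.2% in those with 257 to 433. Igha held 72.5 ± 16.4% of the counts of all heavy chain constant region genes in sham kidneys, 75.6 ± 13.9% at 5d and 92.7 ± 2.08% at 28d post-MI. Ighm held 22.4 ± 15.0%, 18.8 ± 10.2% and 5.12 ± 1.46%. The 4 IgG genes together held 3.0 ± 2.74%, 4.62 ± 6.26% and 1.32 ± 1.25%. Sham kidneys spread from 44.1% IgA in replicate 2 (30 of 68 counts, exact 95% interval 32.1 to 56.7%) to 89.7% in replicate 4, and kidneys 28d post-MI only from 89.4 to 95.2%. The IgA share of 28d post-MI kidneys thus overlapped with the upper end of both other groups. Between 5d and sham the difference was 3.13 percentage points for IgA (two-sided exact permutation p = 0.679), −3.60 for IgM (exact permutation p = 0.584) and 1.62 for IgG (exact permutation p = 0.584), all with an adjusted p of 0.679 over 4 tests.

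Kappa took most of the light chain counts in every group. Igkc held 85.1 ± 8.06% of light chain counts in sham kidneys, 87.4 ± 4.0% at 5d and 90.1 ± 4.24% at 28d post-MI. The lowest share was 68.8% in sham replicate 2 and the highest 95.4% in 28d replicate 7. The 5d kidneys differed from sham by 2.33 percentage points (exact permutation p = 0.511, adjusted p = 0.679). The lambda genes together were at 4.03 ± 2.33 CPM in sham, 3.04 ± 1.19 at 5d and 9.26 ± 5.75 at 28d post-MI.

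**Figure D4:**
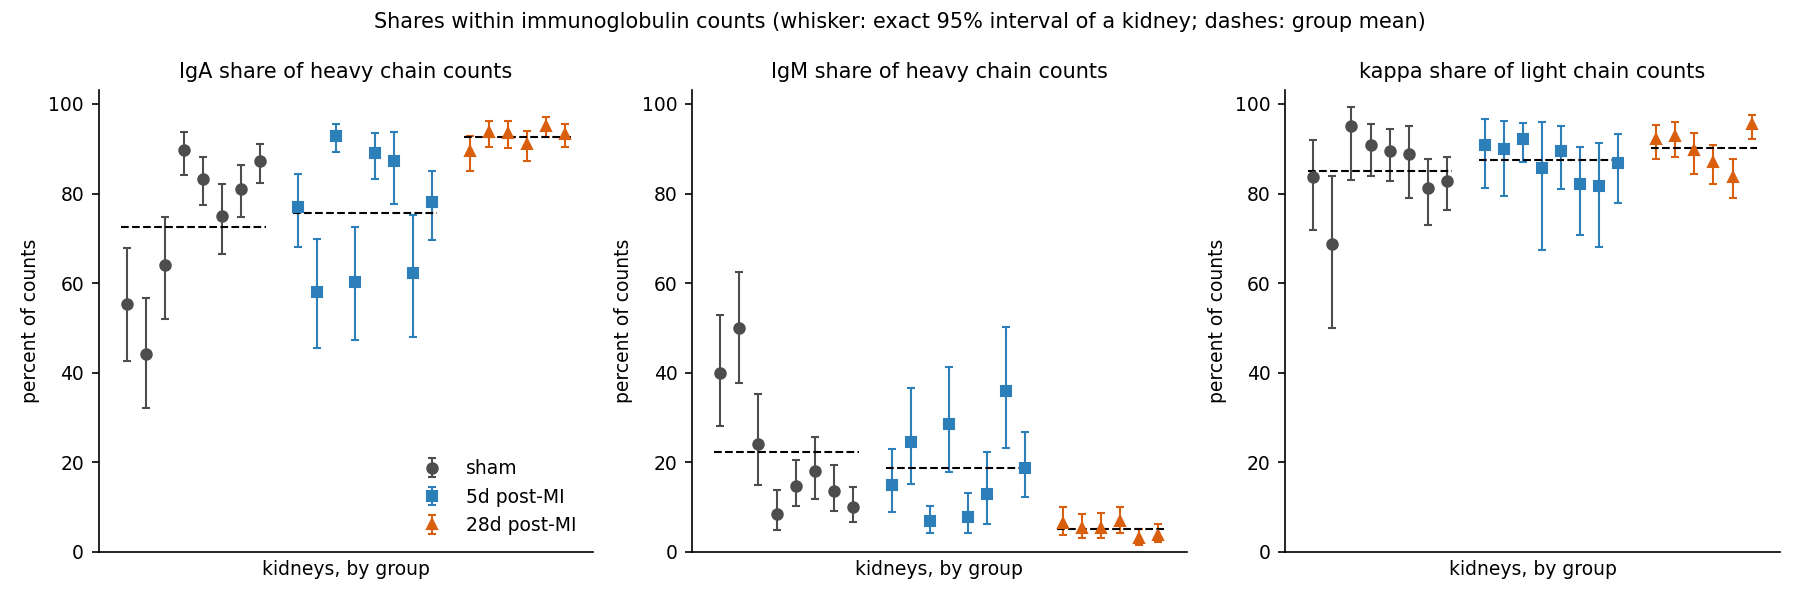
Percent of heavy chain counts from Igha and from Ighm and percent of light chain counts from Igkc (y axes) in each kidney, in order of replicate within a group, with exact 95% binomial intervals as whiskers (counting error only) and the group mean as a dashed line. IgA shares 28d post-MI sit between 89.4 and 95.2%, at the upper end of the range of the sham and 5d kidneys.

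Constant region genes outside the list were sparse. Ighd, the heavy chain that naive B cells carry beside IgM, had 20, 10 and 17 counts in the sham, 5d and 28d groups (means 0.837, 0.468 and 1.07 CPM). Ighg1 had 7, 3 and 2 counts, 6 of them in sham replicate 3, and Ighg3 had 0, 0 and 2. Iglc3 had 17, 7 and 11 (means 0.667, 0.312 and 0.678 CPM), and Ighe and Iglc4 were listed at 0. Of 382 variable, diversity and joining segments in the table, 7 had a count, 8 counts in all against 6877 for the constant regions, led by Iglv1 with 2, so that nothing can be said about clones.

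Plasma cell markers other than the antibody genes were checked, since the list is named for plasma cells. Of 15 such markers, 8 passed the filter and 0 were called by edgeR, DESeq2 or limma voom in any comparison. In 28d against sham 2 had an unadjusted p under 0.05, Xbp1 and Creld2, in 5d against sham Xbp1 and in 28d against 5d Creld2. The list summed to medians of 210, 243 and 228 CPM in sham, 5d and 28d kidneys, a sum led by genes that kidney epithelium also expresses, such as Xbp1, a transcription factor of secretory cells (70.7 ± 5.46, 94.1 ± 21.4 and 87.5 ± 17.0 CPM), and Txndc5, a protein disulphide isomerase (41.1, 42.0 and 43.4 CPM). The 7 markers below the filter are closer to plasma cells alone and held 120 counts over 8 sham kidneys, 72 over 8 kidneys 5d post-MI and 74 over 6 kidneys 28d post-MI, or 4.80, 3.04 and 4.59 CPM. Among them Tnfrsf17, the receptor BCMA of long-lived plasma cells, had 4, 3 and 1 counts, and Derl3 had 19, 6 and 18. Irf4 had 34, 20 and 8 counts, Prdm1 30, 21 and 20, Slamf7 18, 11 and 14, Tnfrsf13b 12, 2 and 6, and Pou2af1 3, 9 and 7. They did not move together, and since the groups differ in size, means are given from sham to 28d. Means were higher at 28d for Derl3 (0.780 to 1.12 CPM), Slamf7 (0.718 to 0.863) and Pou2af1 (0.124 to 0.452). Lower means were those of Irf4 (1.34 to 0.485 CPM), Tnfrsf17 (0.185 to 0.0623) and Tnfrsf13b (0.434 to 0.362), with Prdm1 at 1.28 and 1.26. Derl3 was at 0.748 CPM or more in kidneys 28d post-MI, at most 0.433 at 5d, and between 0 and 1.69 in sham. The name plasma cell genes therefore rests, in these kidneys, on Jchain and the antibody genes themselves. Unlike Igkc, Igha and Jchain, the sum of these 7 markers was no higher 28d post-MI than in sham. It ranged from 3.22 to 5.69 CPM in kidneys 28d post-MI and from 3.33 to 6.82 CPM in sham kidneys. Each of the 7 alone held too few counts to be tested.

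Markers of B cells and of other immune and stromal cells were measured as lists. The B cell list of 14 genes had 443 counts over all kidneys, with median sums of 7.24, 6.21 and 7.22 CPM in sham, 5d and 28d kidneys, and no gene of it passed the filter. Of its defining genes, Ms4a1 had 14, 7 and 0 counts in the sham, 5d and 28d groups, Cd79a 12, 12 and 9, and Cd79b 29, 30 and 27. These groups differ in size, and the means were 0.554, 0.298 and 0 CPM for Ms4a1, 0.474, 0.551 and 0.558 for Cd79a and 1.14, 1.32 and 1.65 for Cd79b. None of the T cell (medians 7.96, 5.72 and 7.63 CPM), natural killer (2.39, 2.12 and 2.63) and neutrophil genes (4.65, 5.20 and 4.02) passed the filter, nor did the adrenal genes. All 8 macrophage genes did, with median sums of 145, 121 and 152 CPM, and edgeR, DESeq2 and limma voom called 0 of them, with 3, 0 and 2 at an unadjusted p under 0.05 in edgeR for 5d against sham, 28d against sham and 28d against 5d. Of 7 genes of lymphoid stroma 2 were tested and 0 called by these tools (medians 11.6, 9.26 and 7.96 CPM), with 1 lower at an unadjusted p under 0.05 in both comparisons of 28d.

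Adipocyte genes are given beside the members because their level varied widely between kidneys. Their sum had medians of 1161, 1042 and 540 CPM in sham, 5d and 28d kidneys. Of the 6 adipocyte genes tested, 0 were called in 28d against sham by edgeR, DESeq2 or limma voom. In edgeR 4 were lower at an unadjusted p under 0.05, beside 1109 of all 12780 tested genes in either direction. An example is Plin1, a coat protein of fat droplets, with −1.48 (standard error 0.46, adjusted p = 0.335 from edgeR). With group means removed, the adipocyte sum had a Pearson correlation of −0.59 with the immunoglobulin sum over 22 kidneys. With the adipocyte level as a covariate, the log2 differences of 28d to sham were 1.39 for Igkc, 1.28 for Igha and 1.39 for Jchain. Within the 5d group the low adipocyte sums of replicates 2, 3 and 6 (388, 357 and 194 CPM) stood beside immunoglobulin sums of 39.3, 162 and 109 CPM.

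**Figure D5:**
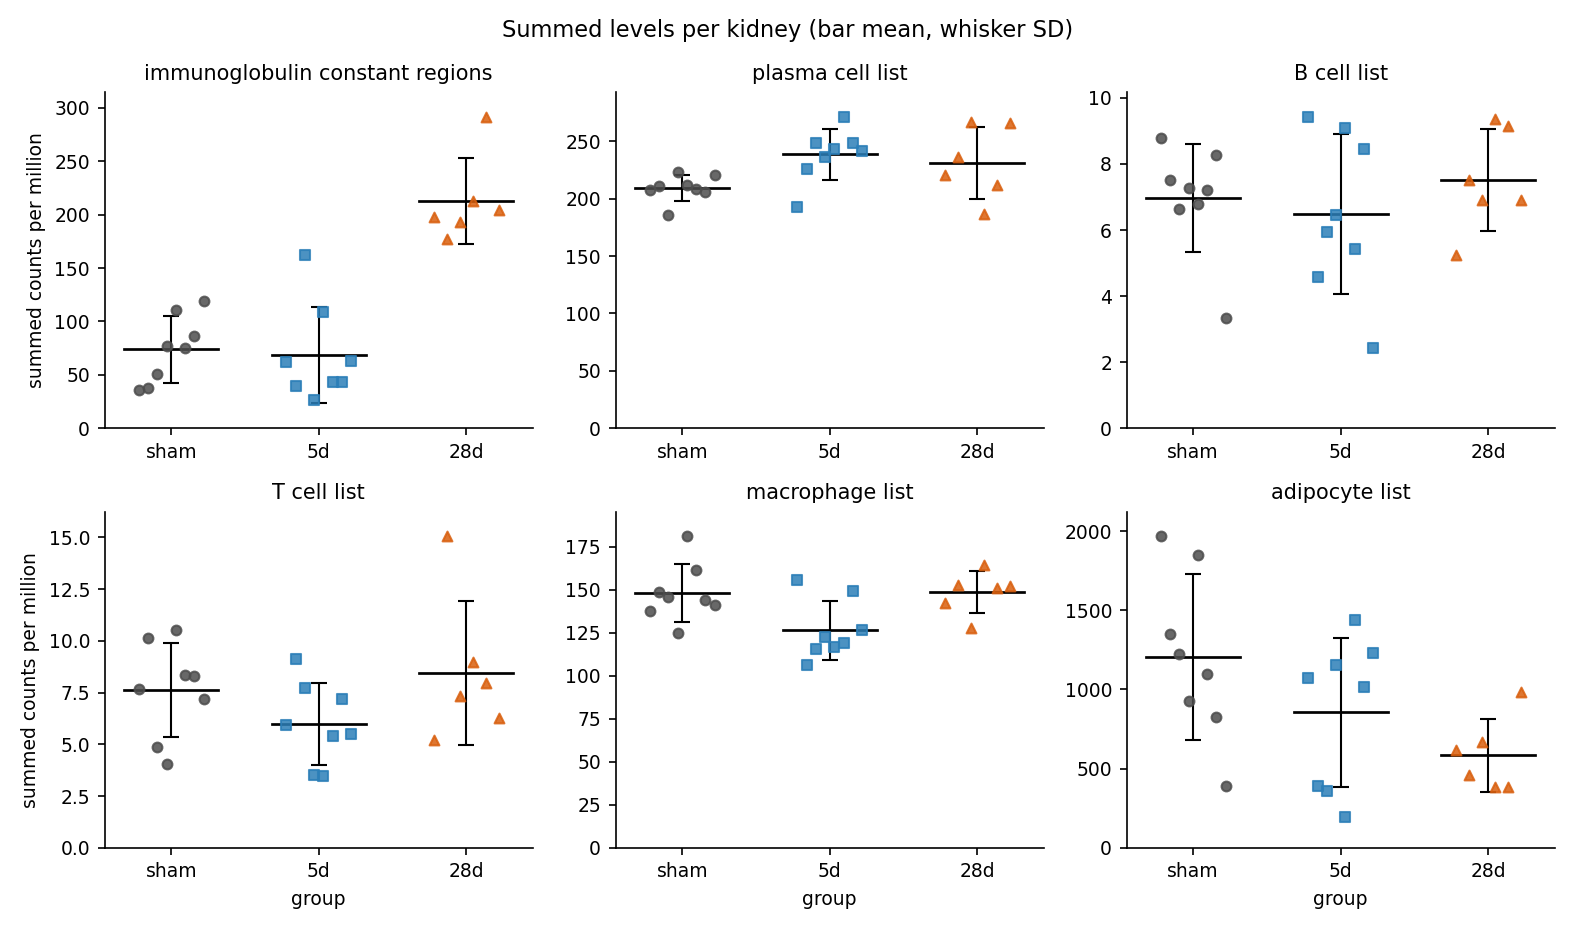
Summed CPM (y axes, linear from 0) of all immunoglobulin constant region genes and of 5 marker lists in each kidney, by group (x axis), with mean bars and SD whiskers. Immunoglobulin sums 28d post-MI lie above all sham kidneys, the sums of the plasma cell, B cell, T cell and macrophage lists overlap between sham and 28d, and adipocyte sums have lower medians 28d post-MI.

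Red cell genes were measured as a list of 5, of which 4 were tested. The 4 haemoglobin genes tested (Hbb-bs, Hba-a1, Hbb-bt, Hba-a2) were called in 5d against sham, with a median log2 difference of 1.51 (lowest adjusted p = 0.0356 from edgeR), and in 28d against 5d, with a median of −1.79 (lowest adjusted p = 0.00375 from edgeR). The number of list genes called in 5d against sham fell from 4 to 0 without any 1 of sham replicates 1 to 7, 5d replicates 2, 7 and 9 and 28d replicates 3, 4 and 6, and also with the replicate block, with the adipocyte covariate and without the kidneys with adrenal markers. It was 2 without sham replicate 8, 5d replicate 3 or 6 or 28d replicate 1 or 7, and 1 with only these 2 groups. In 28d against 5d it stayed at 4 leaving out any 1 kidney and was 0 with only these 2 groups. With all kidneys they were the only genes of all lists that edgeR called after the filter in any comparison. Their sum had a correlation of −0.04 with the immunoglobulin sum over 22 kidneys after removing group means. Kidney epithelial markers had median sums of 56627, 56090 and 67239 CPM, and edgeR called 0 of 7 in each comparison, with 3 at an unadjusted p under 0.05 in each.

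Genes that receive or move antibody were measured as a list of 11, of which 7 passed the filter. Of these edgeR and limma voom called 0 in each comparison and DESeq2 1 (Fcgrt, in 5d against sham). Pigr, the receptor that carries polymeric IgA and IgM across epithelium, had means of 53.6 ± 11.2, 69.3 ± 17.5 and 71.6 ± 15.9 CPM. Its log2 difference to sham was 0.37 at 5d (standard error 0.16, adjusted p = 0.587 from edgeR) and 0.41 at 28d (standard error 0.17, adjusted p = 0.521 from edgeR). Fcgrt, the neonatal Fc receptor that recycles IgG, differed from sham by 0.21 at 5d (standard error 0.05, adjusted p = 0.10 from edgeR) and 0.14 at 28d (standard error 0.05, adjusted p = 0.395 from edgeR). B2m, its partner chain, was at 331, 313 and 342 CPM, and the Fc receptor Fcgr2b at 28.8, 28.6 and 28.1 CPM.

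Of 20 survival and homing factors of plasma cells, 4 passed the filter and 0 were called by edgeR, DESeq2 or limma voom, with 0 also at an unadjusted p under 0.05. Cxcl12, the chemokine that holds plasma cells in their niche, was at 152 ± 23.6, 157 ± 31.1 and 162 ± 31.1 CPM. Ccl28, a chemokine of IgA plasma cells that epithelium secretes, was at 44.1 ± 21.1, 32.8 ± 14.6 and 38.7 ± 9.99 CPM. Tnfsf13b, the survival factor BAFF, had 37, 34 and 24 counts (means 1.47, 1.40 and 1.47 CPM), and its relative Tnfsf13 (APRIL) was listed at 0 in all kidneys.

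The 18 genes of folding and secretion in the endoplasmic reticulum all passed the filter. EdgeR, DESeq2 and limma voom called 0 of them in each comparison. In edgeR 9 were higher at an unadjusted p under 0.05 in 28d against sham, beside 1109 of all 12780 tested genes in either direction. The list's median log2 difference was 0.21 in 28d against sham, beside −0.0012 for all tested genes, and 0.0094 at 5d. Its sum was 2286, 2668 and 2106 CPM in 28d replicates 2, 3 and 7. In 28d replicates 1, 4 and 6 it was 1648, 1760 and 1811 CPM, within the sham range of 1608 to 1943 CPM. Hspa5, the chaperone BiP that holds free heavy chains, had 317 ± 53.2, 332 ± 46.4 and 485 ± 193 CPM, with a log2 difference of 28d to sham of 0.61 (standard error 0.19, adjusted p = 0.323 from edgeR). Herpud1 and Hsp90b1 differed by 0.22 and 0.21 (adjusted p = 0.638 and 0.442 from edgeR). The sum of this list had a correlation of 0.05 with the immunoglobulin sum over 22 kidneys with group means removed.

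Likeness to the immunoglobulin sum was measured over 22 kidneys, as the Pearson correlation of log2 CPM with group means removed, and is a description. Among the members it was 0.98 for Igha, 0.96 for Igkc, 0.87 for Jchain, 0.61 for Iglc1 and 0.04 for Ighm, each of which is part of the sum except Jchain. The 10 tested genes outside the list most like it included Nipsnap1, Snn, Gm45871, Prelid1, Cldn2, Mydgf, Cyp2e1, Elob and Gm10076, at 0.81 for Nipsnap1 down to 0.70 for Gm10076. Cldn2 encodes a claudin of the proximal tubule. In 28d against sham the log2 difference was 0.02 for Nipsnap1 and 0.10 for Cldn2. Only 5 of the 10 were also among the first 10 by Spearman's correlation, and 3 of them within sham and 5d kidneys alone.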

How the data were processed

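Kidney RNA was sequenced by MACE, which reads 3′ ends of mRNA and removes PCR duplicates by unique molecular identifiers. The authors trimmed reads with Cutadapt, mapped them and counted genes with HTSeq, and the submitters' processing notes also name Bowtie2. The study's methods name mm10 and the processing notes mm39. Annotation and strand setting are not given in the sources used here, so positions are those of GENCODE M21 on GRCm38, matched by gene identifier. The deposited whole-number counts per gene are unnormalized. Columns that the authors named tpm hold CPM that the authors scaled from these counts, within 5e-06, and served only as a check. Of 48 value columns 4 were not used, because their names do not tell apart 1 kidney 5d and 1 kidney 28d post-MI. That left 22 of 24 kidneys, with median totals of 3206757 (sham), 3057829 (5d) and 2644574 (28d). In each of 71 pairs of kidneys of 1 group, counts differed by more than sampling noise (chi-squared over its degrees of freedom 1.69 to 7.21).

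Counts were filtered by filterByExpr (minimum 10), which kept 12780 of 30116 genes with a count, TMM scaled and fitted by edgeR 4.0.16 (R 4.3.3, robust quasi-likelihood F test, two-sided, 3 groups, no covariate) with Benjamini-Hochberg adjustment over all tested genes. Alternatives were DESeq2 1.42.0, limma 3.58.1 voom, DESeq2 size factors, no filter, 2-group fits, leave-one-out fits, a replicate block and an adipocyte covariate. DESeq2 without independent filtering, and leaving out kidneys with over 50 CPM of adrenal genes, were added after seeing the data. Correlations were computed on log2 CPM with a prior count of 2. Shares and correlations used exact permutation tests (Python 3.11.15, scipy 1.17.1), and intervals of shares are exact (Clopper-Pearson). Scripts were tested on simulated data. Members, gene lists and tests were chosen with earlier results of these data known. Named were the members, other constant region genes, the 3 segments with most counts where counts were not tied, the 10 genes most like the immunoglobulin sum, list genes called, and up to 4 of highest mean CPM per list. Plin1, Ms4a1, Cd79a, Tnfrsf17, Derl3, Irf4, Prdm1, Slamf7, Tnfrsf13b, Pou2af1, Creld2, Pigr, Tnfsf13b and Tnfsf13 fall outside that rule and were named after their values were seen. Some genes that the rule would name are not reported here.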

Additional observations from a re-analysis of the deposited data

Results flagged for a closer look

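Flags were set by Dixon's test for a sample apart from its group, or by a difference between the changes at 2 times. In kidneys 28d post-MI, Igha in replicate 6 was 164 CPM against 114 CPM in the next kidney, a gap of 0.730 of the range where the critical value is 0.625. The summed immunoglobulin level of the same kidney was 292 CPM, and the next kidney had 213. Ighg2c in 28d replicate 7 was 0.313 CPM, which is 1 count, with 0 in the other 5 kidneys. The IgG share of heavy chain counts in sham replicate 3 was 9.33%, with 3.16% in the next kidney, and 6 of its 7 IgG counts were Ighg1. Of 39 groups examined 4 had such a sample, and chance gives about 1 in 20.

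The changes from sham of Igkc and Jchain differed between the times, by a log2 of 1.78 for Igkc and 2.02 for Jchain (28d minus 5d). These are values of the kidneys for which the genes were known, given as a description.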

How the results depend on the processing

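The number of called genes moved more with the settings than the members' values did. In 5d against sham 9 genes were called, and 80 without a filter, 35 by DESeq2 (also with independent filtering off), 22 by limma voom, 2 with only the groups compared, 2 without the 3 kidneys with adrenal markers, 1 with the adipocyte covariate and 1 to 38 leaving out 1 kidney. In 28d against sham 3 became 94 without a filter, 30 and 42 by DESeq2 with and without independent filtering, 11 by limma voom, 31 with 2 groups, 1 without the adrenal kidneys and 0 to 29 leaving out 1 kidney. In 28d against 5d 53 became 160, 93 by DESeq2 both ways, 26 with 2 groups and 41 to 84 leaving out 1. Called members in 28d against sham went from 0 to 2 without a filter, 1 or 2 by DESeq2, 3 by limma voom, 1 with 2 groups and 0 to 2 leaving out 1 kidney. In 28d against 5d they went from 2 to 3 by DESeq2, 3 by limma voom, 3 with the adipocyte covariate and 2 or 3 leaving out 1. List genes called in 5d against sham (4) became 1 with 2 groups, 0 with the adipocyte covariate, 0 without adrenal kidneys and 0 to 5 leaving out 1, in 28d against sham (0) 1 without a filter and 1 with 2 groups, and in 28d against 5d (4) 0 with 2 groups. The cause was not tested.

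Replicate numbers did not pair the kidneys: same-numbered kidneys had correlations of −0.13 to 0.090, none over 0.1. With the replicate block 2, 24 and 80 genes were called in 5d against sham, 28d against sham and 28d against 5d, with 0, 0 and 1 members (Jchain), and 0 list genes in 5d against sham.

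Directions turned only for values near 0, none of them called. Leaving out 1 kidney, Igkc in 5d against sham ranged from −0.41 to 0.042 and was above 0 without sham replicate 8 (0.037) or 5d replicate 5. Igha ranged from −0.52 to 0.082 and was above 0 without sham 5 (0.034), sham 8, 5d 2 (0.044), 5d 5 (0.054) or 5d 8 (0.016). Ighm in 28d against 5d ranged from −0.039 to 0.14 and was below 0 without 5d 7 or 28d 4 (−0.036). Without sham replicate 2 the share differences of 5d to sham were −0.92 points (IgA; range leaving out 1 kidney −0.92 to 5.65), 0.34 (IgM; −6.04 to 0.34) and −0.00058 (kappa; −0.00058 to 3.75). Of the 10 most alike genes, 5 were shared with Spearman's ranking and 3 with the sham and 5d kidneys only. Of 815 values recomputed, 694 kept direction and side of the threshold or size. Depth limits the IgG genes, Iglc2 and the specific plasma cell markers, which held few counts per kidney.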
